A study of Mus musculus with 12 samples.

Results

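The effect of the NPM-ALK transgene in thymocytes with Dnmt1 deletion was examined by comparing 3 libraries of NPM-ALK transgenic mice with Cd4-Cre deletion of this DNA methyltransferase (ALKKO) with 3 libraries of non-transgenic mice with the same deletion (KO), 6 of the 12 RNA-seq libraries of the study. The 6 libraries were chosen by their labelled genotype and not by any measured value. Both groups carried 2 loxP-flanked Dnmt1 alleles and Cd4-Cre, and ALKKO mice carried in addition the human NPM-ALK transgene, whose expression the Cd4 enhancer-promoter drives, so that the deletion and the transgene were both directed to T cells. The ALKKO mice (ALKKO1, ALKKO2 and ALKKO3, by the number in the labels) were males of 25, 21 and 19 weeks. KO1 and KO3 were males of 20 and 21 weeks and KO2 was a female of 20 weeks. The other 6 libraries were thymocytes of males with loxP-flanked Dnmt1 and no Cre (Ctrl, 20 to 25 weeks) and tumor cells of NPM-ALK transgenic males with functional Dnmt1 (ALK, 22 to 31 weeks). The mice were of a mixed C57Bl/6 and SV/129 background, and RNA came from homogenized tissue.

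NPM-ALK joins the oligomerization domain of nucleophosmin to the kinase domain of ALK, which makes the kinase active without a ligand. In anaplastic large cell lymphoma the fusion is known to phosphorylate STAT3, partly through JAK3, and to feed the RAS-ERK, PLCγ and PI3K pathways. Known outputs include the cytokine-signaling inhibitor SOCS3, the activation marker CD30 and cytotoxic granule proteins. DNMT1 copies DNA methylation to the new strand at each cell division, and its loss is known to release germline genes and repeats from silencing.

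Gene counts of the 6 libraries summed to 12739959 to 18279968 reads. Levels are given in CPM, a gene's reads scaled to the same total in every library after TMM normalization, and log2 fold changes (ALKKO over KO) come with their standard error (SE). FDR stands for the Benjamini-Hochberg adjusted p over all genes tested, and a call needed an FDR under 0.05 together with a log2 fold change beyond 1 in either direction. Where no other value is given, the edgeR FDR of a gene named below was 0.9998. The gene lists below were drawn up with earlier results of these data known, so shares of their members beside a background only describe them. In the main fit the p-values rest on the spread between mice within groups, taken over all 12 libraries, the tumors included. Markers of the labelled cell type were present throughout: the summed level of 17 genes of CD4+CD8+ double-positive thymocytes was 11960, 11020 and 12560 CPM in ALKKO1 to ALKKO3 and 13020, 4810 and 13420 CPM in KO1 to KO3. KO2 was the low library for these markers. KO2 and KO3 stood apart in markers of other cells. The 19 B cell genes summed to 8660 CPM in KO2 and 1045 to 2816 CPM in the other 5 libraries, and the 13 plasma cell genes to 40820 CPM against 963.6 to 2586 CPM. The 18 heart muscle genes summed to 7686 CPM in KO3 and 12.5 to 46.7 CPM in the other 5. Red blood cell genes were low in KO1 (265.5 CPM) and ALKKO1 (162.1 CPM) and between 1690 and 2468 CPM in the other 4. In tissue RNA, fewer cells of a type and less RNA per cell cannot be told apart. KO2 was also the one female, so that sex cannot be told apart from what else set it apart. The main results are therefore also given against KO1 alone or without KO2. KO1 was no neutral reference either: against it alone, the median log2 fold change was 2.34 for red blood cell genes and 1.42 for genes of fibroblasts, adipocytes and endothelium.

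**Figure D1:**
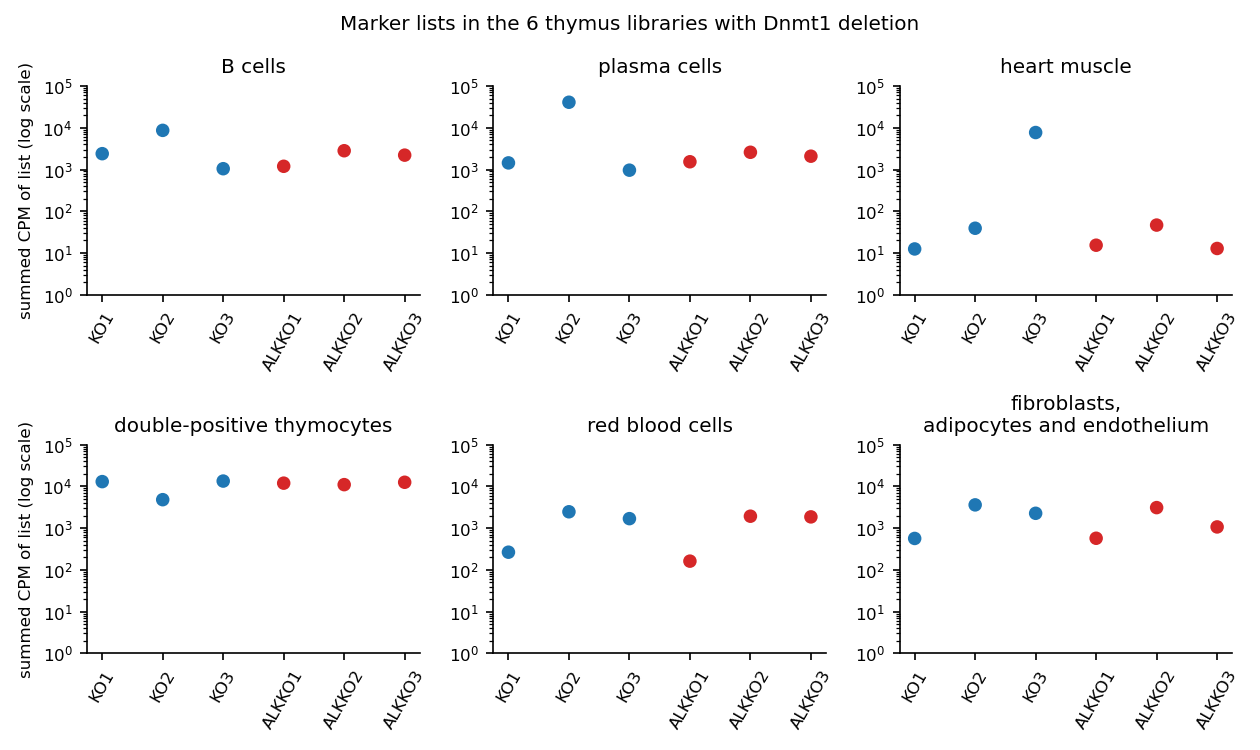
Summed CPM (log scale) of 6 marker lists in each KO (blue) and ALKKO (red) library, 1 point per library. KO2 is highest for B cells and plasma cells and lowest for double-positive thymocytes, and KO3 is highest for heart muscle at 7686 CPM. The ALKKO libraries lie within the range of the KO libraries for every list but red blood cells, for which ALKKO1 lies below it.

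Alk, the mouse gene to which reads of the fusion's kinase part can align, marked the transgenic libraries. Its level was 49.0, 54.8 and 55.0 CPM in the 3 ALKKO libraries and 0.212, 0.172 and 0.270 CPM in the 3 KO libraries. The groups were far apart, with KO near the floor of 3 counts (0.159 to 0.258 CPM). Alk rose by 7.86 ± 0.45 on the log2 scale (SE, edgeR FDR = 6.18e-05) and was the 1 gene called among 16052 tested (0.00623%). Against KO1 alone its log2 fold change was 7.925 at an edgeR FDR of 0.0519. Dnmt1 was at 204.8, 221.6 and 244.4 CPM in ALKKO and 240.4, 206.1 and 243.6 CPM in KO. These groups overlapped, and both lay below the 400.0 to 487.1 CPM of Ctrl. The log2 fold change of Dnmt1 between ALKKO and KO was -0.04 ± 0.23 (SE).

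A pair of pseudogenes with sequence similarity to nucleophosmin, the other partner of the fusion, showed the same separation at a low level. Gm17910 was at 1.39, 0.957 and 1.02 CPM in ALKKO and had no read in any KO or Ctrl library, at least 5.44-fold higher in ALKKO against the mean of 3 counts per KO library. Gm5611 was at 1.03, 0.837 and 0.766 CPM in ALKKO and had no read in KO, at least 4.25-fold higher. Transcripts of these genes aligned to mouse Npm1 at 79.9% and 94.9% identity. Neither passed the adjusted test of edgeR (FDR = 0.306 and 0.990), and both passed that of DESeq2 (FDR = 0.00279 and 0.0107). Gm5611 passed the filter on low counts only through the ALKKO libraries. Both genes were present in all 3 ALK tumors as well, at 0.739 to 0.960 CPM for Gm17910 and 0.605 to 1.72 CPM for Gm5611. Npm1 itself, looked up for this reason, was at 192.2, 248.8 and 203.2 CPM in ALKKO and 210.8, 268.0 and 203.2 CPM in KO, which overlapped. Reads that the human part of the fusion gives to such copies cannot be told apart from reads of the pseudogenes in gene counts.

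Beyond Alk, no gene passed the adjusted test, and 432 genes (2.69%) had an unadjusted p under 0.05, of which 151 (0.941%) were higher and 281 (1.75%) lower in ALKKO. The share is smaller than the threshold of 0.05 itself, so these genes are described as a group and not called changed. They were chosen by the p between these same 6 libraries, so how they sat across the libraries is a description and supports nothing. Of the 151 higher genes, 128 (84.8%) had no overlap between the groups (4.09% of all genes tested in that direction), and of the 281 lower genes 64 (22.8%) had none (2.24%). Part of each set entered the test only because of its high group: 32 of the 151 passed the filter on low counts only through the ALKKO libraries, and 42 of the 281 only through the KO libraries. All 151 higher genes were also higher against KO1 alone, a sign that KO1's part in the choice in part gives. With KO1 as the only KO library, 47 of the 151 (31.1%) and 23 of the 281 lower genes (8.19%) had an unadjusted p under 0.05 again, where 0.864% of all genes were higher and 0.486% lower at that threshold. Among the lower genes 167 were highest in KO2, 101 in KO3 and 13 in KO1, and in 176 (62.6%) KO1 lay within or below the range of the ALKKO libraries. DESeq2 on the same counts called 24 genes (0.15%), of which 21 were higher in ALKKO and 3, Gm14085, Prox1 and Ttn, lower.

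**Figure D2:**
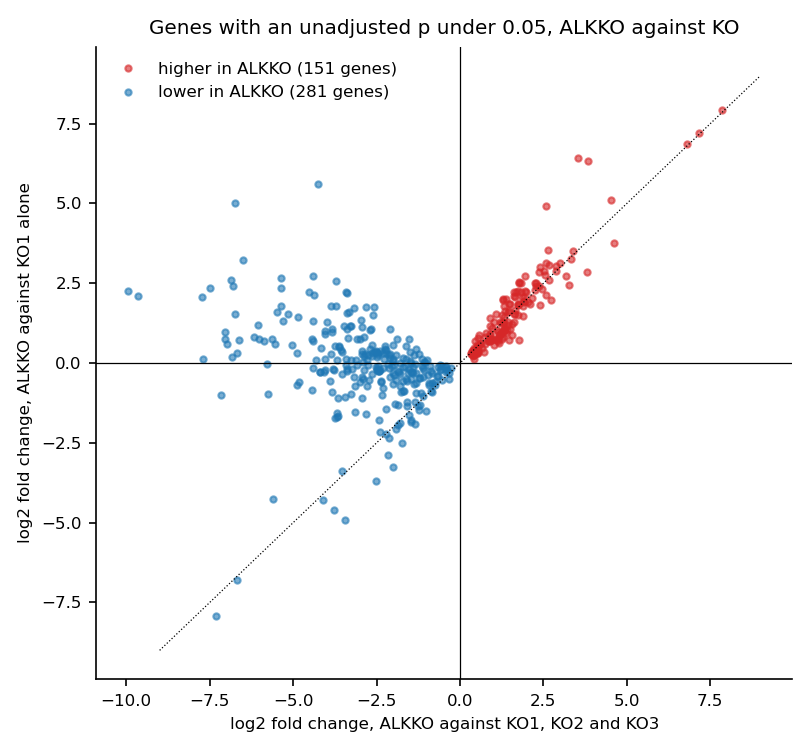
log2 fold change of ALKKO against all 3 KO libraries (x axis) and against KO1 alone (y axis) for the 151 higher (red) and 281 lower (blue) genes with an unadjusted p under 0.05; the dotted line marks equal values. The higher genes lie near the line, and 155 of the 281 lower genes keep a value below 0 against KO1 alone.

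Socs3, which encodes a feedback inhibitor of JAK-STAT signaling and is itself a classical STAT3 target, stood out among the pathway genes. Its level was 304.5, 235.6 and 238.2 CPM in ALKKO, 29.8, 80.9 and 19.14 CPM in KO and 26.4 to 32.5 CPM in Ctrl. All ALKKO libraries lay above all KO and Ctrl libraries, and KO2 was the highest of the latter 6. The log2 fold change was 2.59 ± 0.57 (SE), and 3.13 against KO1 alone. It passed the adjusted test with DESeq2 (FDR = 0.00543) and in an edgeR fit of the 9 thymus libraries less KO2 (FDR = 0.00132), a fit chosen after seeing the data. The 250 bases before the RefSeq start of Socs3 held 1 copy of the STAT-type motif TTCNNNGAA, which reads the same on both strands, beginning 154 bases before the start. It is shown with 10 bases on each side, 5′ to 3′ on the minus strand, GRCm38.p6 chr11:117969502-117969530, with the fixed bases of the motif in capitals. In GENCODE, whose gene bounds name the genes here, Socs3 reaches to 117970047, so that the same site lies within the gene there.
Socs3: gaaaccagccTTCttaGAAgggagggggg
Of the genes higher in ALKKO, 8 of 104 with a RefSeq window (7.69%) held it, against 849 of 11812 genes tested (7.19%) and 3 of 24 genes (12.5%) of the STAT3/STAT5 list.

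Jak3, the γ-chain cytokine receptor kinase known to act with NPM-ALK, was at 371.7, 182.8 and 258.2 CPM in ALKKO, 75.5, 157.3 and 59.9 CPM in KO and 62.1 to 69.3 CPM in Ctrl. The ALKKO libraries lay above all KO and Ctrl libraries, with KO2 closest to them. Its log2 fold change was 1.47 ± 0.49 (SE). Jak3 was the 1 member of 24 adaptor and phosphatase genes tested with an unadjusted p under 0.05 in the higher direction (4.17% against 0.941% of all genes), and the list's median log2 fold change was -0.06 against -0.02 over all genes. Stat3 was at 333.3, 384.0 and 332.5 CPM in ALKKO and 241.2, 350.2 and 223.8 CPM in KO. Only KO2 reached into the ALKKO range for Stat3, and the log2 fold change was 0.37 ± 0.21 (SE). Shp1 (Ptpn6), a phosphatase that opposes the fusion kinase, was at 234.5, 262.0 and 265.6 CPM in ALKKO and 293.0, 596.7 and 253.0 CPM in KO, which overlapped.

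Of the 30 STAT3 and STAT5 target genes tested, 3 had an unadjusted p under 0.05 and higher levels in ALKKO (10% against 0.941% of all genes), none was lower at that threshold, and the median log2 fold change was 0.05. The 3 were Socs3, Pim1 and Tnfrsf8. Pim1, a survival kinase, was at 142.8, 133.3 and 109.0 CPM in ALKKO and 70.9, 110.0 and 78.2 CPM in KO, a log2 fold change of 0.57 ± 0.20 (SE), with KO2 just above the lowest ALKKO library. Tnfrsf8 encodes CD30, the surface marker of anaplastic large cell lymphoma. Its level was 35.0, 20.8 and 37.0 CPM in ALKKO and 13.5, 7.06 and 11.1 CPM in KO, without overlap, and the log2 fold change was 1.55 ± 0.32 (SE, FDR = 0.990 by edgeR and 0.00543 by DESeq2). Without KO2, 7 of the 30 had an unadjusted p under 0.05 and higher levels (background 1.29%), adding Stat3, Bcl3, Batf and Prdm1 (also on the plasma cell list). For Batf and Prdm1, KO2 (31.7 and 28.2 CPM) lay above every ALKKO library. With all KO libraries their log2 fold changes were 0.19 and -0.39. Without KO2, 23 of the 30 had a log2 fold change above 0, as had 7960 of all 16052 genes. Because the list was drawn up with earlier results known, neither count supports anything about STAT targets as a set. Bcl3, an atypical IκB protein chosen after its values were seen, was at 80.2, 89.7 and 84.3 CPM in ALKKO and 14.6, 63.5 and 8.76 CPM in KO. The 3 ALKKO libraries lay close together and above the KO libraries, of which KO2 came nearest. The log2 fold change of Bcl3 was 1.55 ± 0.92 (SE) with KO2 and 2.86 without it, at an edgeR FDR of 0.00213 in the fit of the 9 thymus libraries less KO2. In that fit, 12 genes (0.0734%) were called, all higher in ALKKO: Alk, Wdr49, Socs3, Gzma, Bcl3, Slfn4, Map3k8, Serpinb5, 5830468F06Rik, Lrrc66, Slc30a4 and Sgk1. Map3k8, an activator of the ERK pathway downstream of NF-κB, was at 54.7, 35.3 and 42.6 CPM in ALKKO and 10.4, 25.7 and 7.01 CPM in KO. Wdr49 was at 32.6, 30.8 and 34.0 CPM in ALKKO, at 0.371 and 0.202 CPM in KO1 and KO3 and at 7.92 CPM in KO2. It passed the filter on low counts only through the ALKKO libraries where it was high, so its call only describes it.

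Among cytotoxic granule genes, Gzma stood out. It encodes the granule protease granzyme A and was at 377.5, 337.4 and 259.8 CPM in ALKKO, 53.7, 43.1 and 57.4 CPM in KO and 44.8 to 58.8 CPM in Ctrl. KO1, KO2 and KO3 were alike and every ALKKO library lay above them. The log2 fold change was 2.66 ± 0.58 (SE), and 2.61 against KO1 alone. Gzma passed the adjusted test with DESeq2 (FDR = 0.00358) and with edgeR on the 9 thymus libraries (FDR = 0.00245). Of the 15 cytotoxic genes tested, 1 was higher (6.67% against 0.941% of all genes) and 2 were lower (13.3% against 1.75%) at an unadjusted p under 0.05, and the median log2 fold change was -0.85 with all KO libraries and -0.02 without KO2. The lower members were Ccl5, a chemokine, and Eomes, a transcription factor of cytotoxic cells. Ccl5 was at 35.9, 19.4 and 28.2 CPM in ALKKO and 35.9, 233.2 and 22.4 CPM in KO, with KO2 far above the other 5 libraries. Eomes was at 2.24, 1.14 and 2.23 CPM in ALKKO and 2.01, 19.4 and 1.95 CPM in KO, with KO2 again apart.

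**Figure D3:**
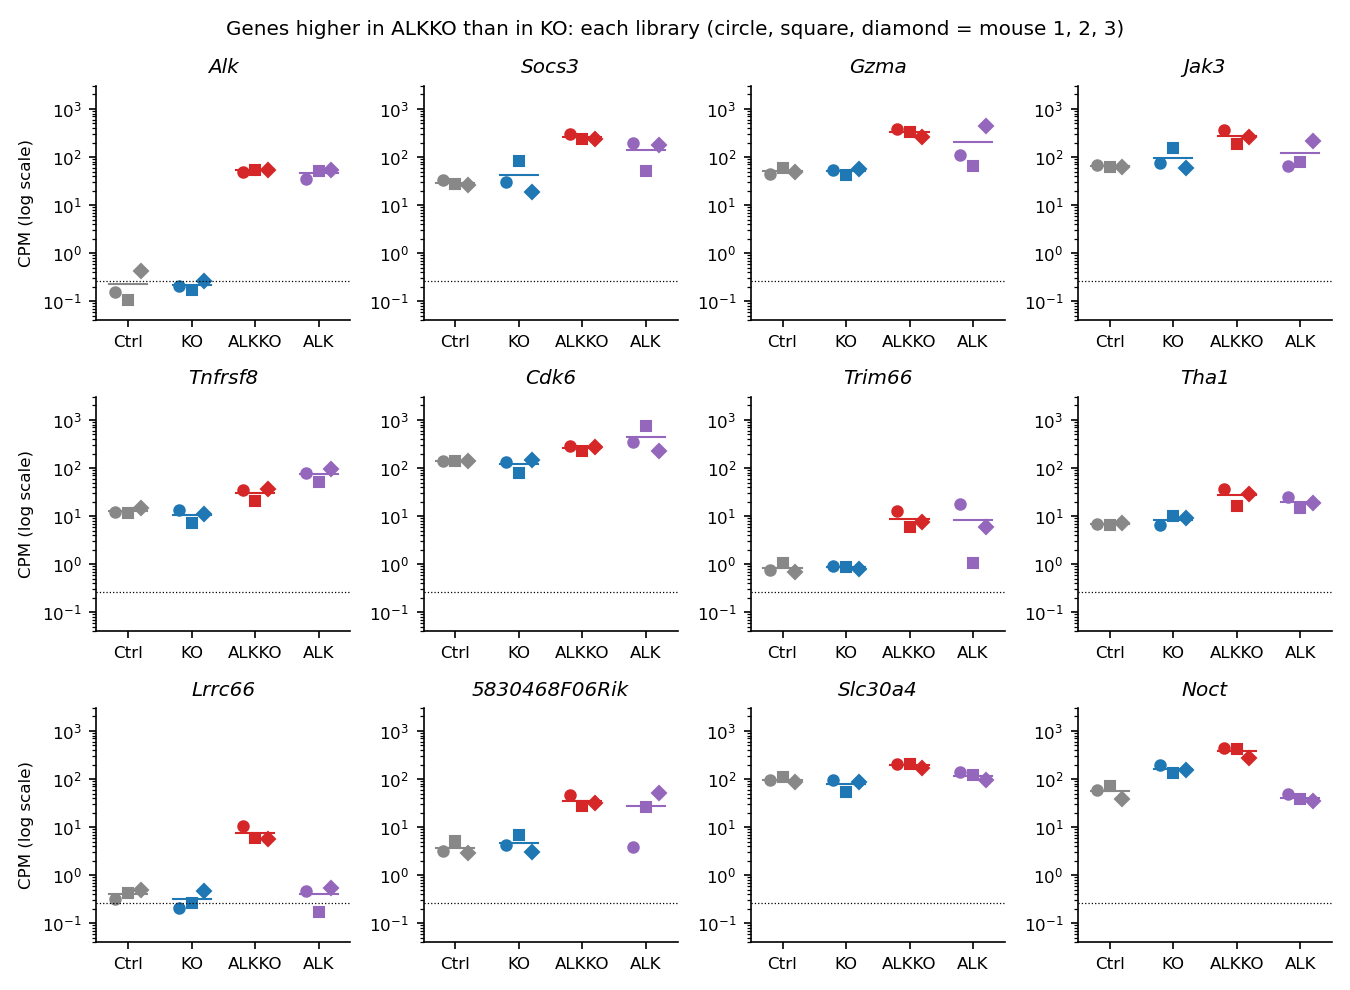
CPM (log scale) of 12 genes in each library of Ctrl (grey), KO (blue), ALKKO (red) and ALK (purple), with the arithmetic mean of each group as a line and the highest floor of 3 counts as a dotted line. In all 12 panels the 3 ALKKO libraries lie above the 3 KO libraries, and for Socs3, Lrrc66 and Noct, for example, they also lie above the 3 ALK tumors. The 12 genes were chosen as higher in ALKKO than in KO, so the separation from KO follows from that choice. Over all genes tested, 4.09% were apart in that direction.

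Other genes that the study named with its expression data and that separated ALKKO from KO were Trim66, Tha1 and 5830468F06Rik. Trim66, a member of the TIF1 family of chromatin readers, was at 12.5, 5.86 and 7.60 CPM in ALKKO and 0.901, 0.861 and 0.809 CPM in KO, a log2 fold change of 3.33 ± 0.81 (SE, DESeq2 FDR = 0.0155). Tha1, threonine aldolase, was at 35.9, 16.3 and 28.4 CPM in ALKKO and 6.41, 9.99 and 9.10 CPM in KO, a log2 fold change of 1.66 ± 0.33 (SE, FDR = 0.990 by edgeR and 0.00238 by DESeq2). The non-coding gene 5830468F06Rik was at 46.1, 27.4 and 32.1 CPM in ALKKO and 4.35, 6.89 and 3.10 CPM in KO, a log2 fold change of 2.88 ± 0.73 (SE, DESeq2 FDR = 0.0235). In none of the 3 did the groups overlap. The study had picked these 3, like Alk, Socs3, Gzma, Gm17910 and Gm5611, as up-regulated in ALK and ALKKO of these same libraries. Their separation in part follows from that choice. The exact permutation test of CPM gave its smallest two-sided p, 0.1, for each gene whose groups did not overlap, so that it could not reach 0.05 with 3 mice against 3.

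The 12 genes with the smallest p-values among 156 that were higher without overlap, at a mean of 1 CPM or more and with a log2 fold change above 1, were Alk, Lrrc66, Gm17910, Slc30a4, Lrrn3, Tha1, Mcam, Tnfrsf8, Noct, 1700026D11Rik, 4930417H01Rik and Gzma. Lrrc66, which encodes a leucine-rich repeat protein, was at 10.6, 6.04 and 5.68 CPM in ALKKO and 0.212, 0.258 and 0.472 CPM in KO. In KO, Ctrl and ALK tumors alike the gene was at most at 0.547 CPM, and all 3 ALKKO libraries lay above that. Its log2 fold change was 4.54 ± 0.55 (SE, FDR = 0.0524 by edgeR and 2.96e-11 by DESeq2). Lrrc66 passed the filter on low counts only through the ALKKO libraries where it was high, so these values only describe it. Lrrn3, another leucine-rich repeat gene, was at 14.5, 5.74 and 7.86 CPM in ALKKO and 1.27, 2.07 and 1.62 CPM in KO, a log2 fold change of 2.50 ± 0.47 (SE, edgeR FDR = 0.908). Slc30a4, a zinc exporter, was at 206.2, 209.4 and 171.4 CPM in ALKKO and 95.9, 53.5 and 85.3 CPM in KO, a log2 fold change of 1.32 ± 0.22 (SE, edgeR FDR = 0.419).

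Mcam (CD146), a cell adhesion molecule, was at 70.3, 77.2 and 47.1 CPM in ALKKO and 16.2, 33.0 and 26.2 CPM in KO, a log2 fold change of 1.37 ± 0.28 (SE, edgeR FDR = 0.990). Noct, which encodes the circadian protein nocturnin, was at 450.7, 426.9 and 273.4 CPM in ALKKO and 195.4, 133.6 and 153.4 CPM in KO. It was at 39.3 to 72.7 CPM in Ctrl, so the KO libraries already lay above Ctrl and the ALKKO libraries above KO. Its log2 fold change against KO was 1.25 ± 0.26 (SE, edgeR FDR = 0.990). The 2 remaining genes, 1700026D11Rik and 4930417H01Rik, were at 1.97 to 5.81 and 2.87 to 7.93 CPM in ALKKO and at 0.258 to 0.583 and 0.603 to 1.08 CPM in KO. Their log2 fold changes were 3.18 ± 0.67 (SE, edgeR FDR = 0.990) and 2.46 ± 0.53 (SE). 1700026D11Rik is annotated as antisense RNA, and without a stated strand setting of the counting its reads cannot be assigned with certainty. This gene, like Lrrc66, passed the filter on low counts only through the ALKKO libraries.

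Several of the higher genes were neighbors on their chromosome. Of the 151, 30 (19.9%) had another of them within 200000 bases, where 820 of all 16052 genes tested (5.11%) had one of the 151 other than themselves that near. On chromosome 13, Ccno (start 112987802), Cdc20b (113035111), Gzma (113093825) and Esm1 (113209659, all GRCm38) lay in this order, with log2 fold changes of 1.31, 2.88, 2.66 and 2.53. Not every gene between them was looked up. Cdc20b was at 11.7, 3.95 and 5.37 CPM in ALKKO and 0.954, 0.517 and 1.35 CPM in KO. Esm1, which encodes endocan, was at 10.2, 7.54 and 6.64 CPM in ALKKO and 1.22, 0.861 and 2.09 CPM in KO. Gpx8, which lies within the bounds of Cdc20b on the other strand, had overlapping groups (4.18, 15.3 and 6.39 CPM against 4.45, 34.2 and 17.3 CPM), as did Dhx29 and BC067074 on either side of the group. On chromosome 11, Tha1 (start 117867952), Gm11725 (117871250) and Socs3 (117966079) had log2 fold changes of 1.66, 1.90 and 2.59, while Birc5 before and Pgs1 after them had 0.30 and 0.36. Tha1 and Gm11725 overlap on opposite strands, as do Slc30a4 and 4930417H01Rik on chromosome 2, so the reads of such pairs may not be fully separable. Both pairs are among the 30, and overlapping genes were not taken out of that count, so it only describes the set. The neighbors and their flanking genes were singled out after their values were seen.

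Of 37 cell cycle genes tested, 36 had a log2 fold change above 0 (7587 of all 16052 genes) and the median was 0.24. Of these 37, 1 gene, Cdk6, had an unadjusted p under 0.05 (2.7% against 0.941% of all genes). KO2 had the lowest summed level of the cell cycle genes (3444 CPM against 6093 to 7011 CPM in the other 5 libraries). Without KO2 the number above 0 was 22 (7960 of all 16052 genes) and the median 0.03. Against KO1 alone 30 were above 0 (8814 of all 16052 genes) with a median of 0.19, where the median of all genes was 0.03. Cdk6, a G1 kinase, was at 284.9, 229.0 and 270.7 CPM in ALKKO and 134.8, 80.3 and 143.7 CPM in KO, with Ctrl at 140.3 to 141.2 CPM. The ALKKO libraries lay above all KO and Ctrl libraries, at a log2 fold change of 1.13 ± 0.37 (SE) that was 0.97 against KO1 alone. Cdk4 (log2 fold change 0.18 ± 0.16 SE), Mki67 (0.23 ± 0.36) and Ccnd1 (-1.05 ± 0.74, with 159.2 CPM in KO2 and 22.4 to 41.4 CPM in the other 5) had overlapping groups.

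Myc was at 55.6, 59.1 and 94.2 CPM in ALKKO and 56.9, 76.7 and 70.4 CPM in KO, a log2 fold change of 0.03 ± 0.20 (SE). None of 43 MYC target and ribosome biogenesis genes had an unadjusted p under 0.05, and their median log2 fold change was -0.02. Without KO2 that median became 0.12, with 40 of 43 values above 0, where 7960 of all 16052 genes were above 0. Against KO1 alone it was 0.22, with 42 of 43 values above 0, where the median of all genes was 0.03. Notch1 was at 320.0, 336.5 and 392.7 CPM in ALKKO and 277.1, 191.0 and 225.5 CPM in KO. These did not overlap, but the log2 fold change of 0.60 ± 0.37 (SE) had an unadjusted edgeR p of 0.140. Of the 16 Notch genes, none passed the unadjusted threshold. Cd44, an activation marker, was at 61.0 to 63.3 CPM in ALKKO and 71.0, 170.2 and 46.1 CPM in KO, a log2 fold change of -0.61 ± 0.84 (SE). The lists of ERK targets (23 genes), PI3K and FOXO targets (18), p53 targets (20), DNA methylation enzymes and readers (21) and T-cell receptor genes (22) likewise had no member with an unadjusted p under 0.05 and median log2 fold changes from -0.13 to 0.06.

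Among 26 germline genes silenced by DNA methylation that had reads, 13 passed the filter on low counts, and 4 of these, Tuba3b, Tuba3a, Tex19.1 and Gsdme, had an unadjusted p under 0.05 and higher levels in ALKKO (background 0.941%). Tuba3a and Tex19.1 passed the filter only through the ALKKO libraries where they were high, so the count supports nothing about the list. The summed level of the 26 genes was 59.3, 68.6 and 49.8 CPM in ALKKO, 35.5, 31.2 and 26.5 CPM in KO and 6.38 to 10.5 CPM in Ctrl, without overlap between any of the 3 groups. Tuba3b and Gsdme, picked by their p, held a large part of these sums. The gap between the ALKKO and KO sums therefore does not speak for the other members. Of the 13 tested, 8 had a log2 fold change above 0, with a median of 0.36 (-0.02 over all genes). Tuba3b, a testis tubulin, was at 23.1, 27.4 and 17.3 CPM in ALKKO, 5.46, 6.11 and 6.40 CPM in KO and at most 0.317 CPM in Ctrl. Its log2 fold change between ALKKO and KO was 1.91 ± 0.51 (SE, DESeq2 FDR = 7.51e-06). Tuba3a, a near-identical copy whose reads may be split with Tuba3b, was at 2.60, 2.63 and 1.60 CPM against 0.636, 0.947 and 0.404 CPM. Tex19.1, a regulator of retrotransposons in germ cells, was at 1.09, 0.658 and 1.02 CPM against 0.318, 0.431 and 0.135 CPM, and Gsdme, a pore-forming gasdermin and no germline protein, at 13.7, 13.0 and 8.37 CPM against 7.15, 3.87 and 5.19 CPM. In none of the 4 did ALKKO and KO overlap. The number of members higher at an unadjusted p under 0.05 was 4 without KO2, 2 without KO1, 1 without KO3 and 1 against KO1 alone (backgrounds 1.29%, 1.07%, 1.12% and 0.864%). Tdrd9 was lower without KO2 (background 1.18%) and against KO1 alone (background 0.486%). Tdrd9 was at 9.65 CPM in KO1 and 0.689 to 1.68 CPM in the other 5 libraries.

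The sign of the interferon-stimulated genes depended on 1 library. With all KO libraries, 3 of 32 tested had a log2 fold change above 0 and the median was -0.47, with no member at an unadjusted p under 0.05. KO2 had the highest summed level (3945 CPM), while KO1 and KO3 (1285 and 1089 CPM) lay below the ALKKO libraries (1768, 1463 and 1746 CPM). Ctrl was at 1294 to 1472 CPM. Without KO2, 31 of 32 were above 0, the median was 0.54 and 4 members, Zbp1, Gbp2, Gbp3 and Ddx58, had an unadjusted p under 0.05 and higher levels (background 1.29%), and none was lower. Zbp1, a sensor of nucleic acids in the cytoplasm, was at 162.2, 97.9 and 130.7 CPM in ALKKO, 64.6, 184.4 and 46.7 CPM in KO and 57.6 to 67.7 CPM in Ctrl. Gbp2, a guanylate-binding protein, was at 117.2, 138.8 and 100.2 CPM in ALKKO, 66.1, 173.9 and 61.9 CPM in KO and 60.2 to 65.5 CPM in Ctrl. For both genes KO2 lay above the ALKKO libraries, and every other KO and Ctrl library lay below them. B cell, plasma cell and macrophage markers were also highest in KO2. The macrophage, dendritic cell and granulocyte list summed to 3743 CPM in KO2 and 1056 to 1549 CPM in the other 5.

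**Figure D4:**
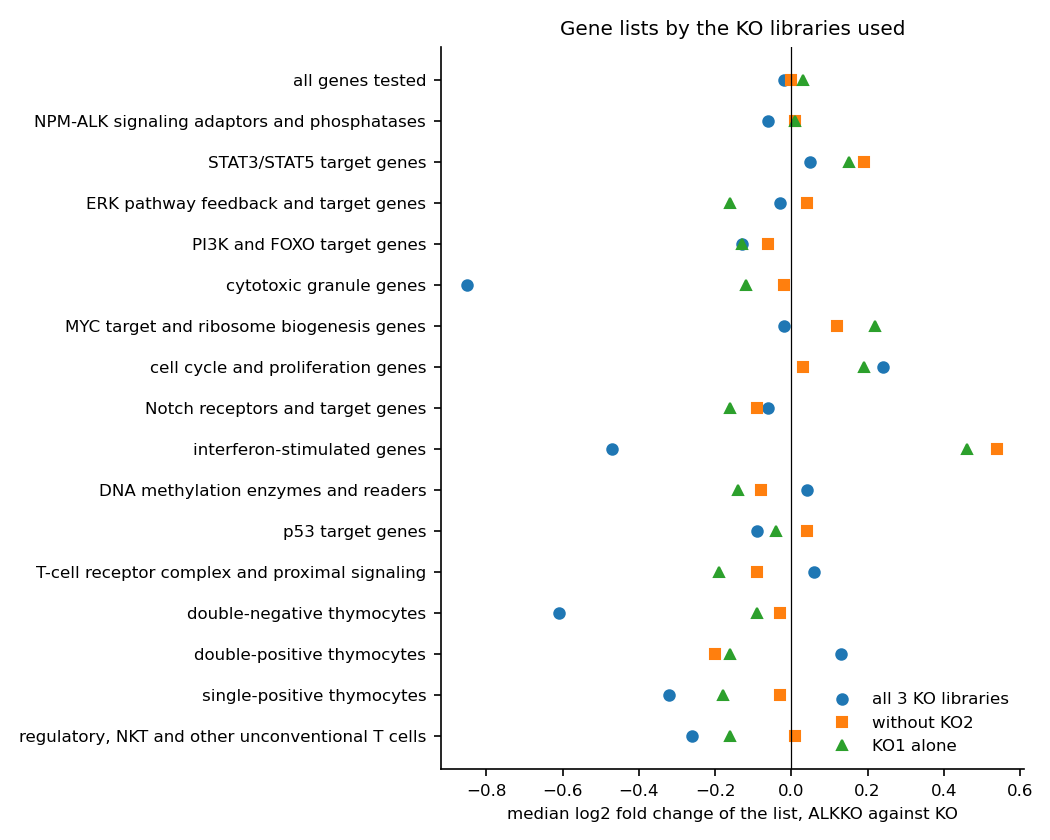
Median log2 fold change (ALKKO against KO) of pathway and thymocyte lists and of all genes tested, with all 3 KO libraries (circles), without KO2 (squares) and against KO1 alone (triangles). Interferon-stimulated genes move from -0.47 to 0.54 when KO2 is left out, and cytotoxic granule genes from -0.85 to -0.02.

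In the main fit, markers of thymocyte stages had few members at the unadjusted threshold. Among double-positive, single-positive and unconventional T cell markers (17, 21 and 21 tested) none passed, with median log2 fold changes of 0.13, -0.32 and -0.26, and among 15 double-negative markers 2 were lower (13.3% against 1.75%). The latter were Lmo2 and Mef2c, transcriptional regulators also found in B cells, at 105.9 and 178.4 CPM in KO2 and 7.95 to 11.9 CPM in the other 5 libraries. Without KO2 the median of the double-positive markers was -0.20 and 3 of 17 values were above 0. In the fit of the 9 thymus libraries less KO2, chosen after seeing the data, 5 of 17 double-positive markers were lower at that threshold. Of 21 single-positive markers 4 were lower and 2 higher. T-cell receptor genes (4 of 22) and thymic epithelium genes (6 of 20) were also lower, against 395 lower and 499 higher of 15933 genes. The epithelium genes summed to 4331, 4430 and 4402 CPM in ALKKO and 6238, 2989 and 5438 CPM in KO1 to KO3.

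Markers of the other cells seen in KO2 and KO3 made up part of the genes lower in ALKKO. Of 19 B cell and 13 plasma cell genes tested, 15 and 7 had an unadjusted p under 0.05 and lower levels (78.9% and 53.8% against 1.75% of all genes). Of 18 heart muscle genes with reads, 14 were tested, 4 of them only through the KO libraries, and these 14 were lower at that threshold. Among the 281 lower genes 33 (11.7%) were immunoglobulin segments, as were 163 of all genes tested (1.02%). Against KO1 alone, no member of these 3 lists passed, and the median log2 fold changes of the B cell and plasma cell genes were 0.29 and 0.24. Nppa, the atrial peptide hormone, was at 2248 CPM in KO3 and at most 2.03 CPM in the other 5 libraries, and Ighg1, an immunoglobulin heavy chain, at 12510 CPM in KO2 and 11.5 to 192.5 CPM in the others. The genes Marco and Glycam1, chosen after their values were seen, were at 509.2 and 447.1 CPM in KO2 and at most 2.22 and 1.63 CPM in the other 5. Among genes of macrophages, dendritic cells and granulocytes (20 tested), red blood cells (8), fibroblasts, adipocytes and endothelium (19) and the immediate early and heat shock response (15), no member had an unadjusted p under 0.05.

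Among the 54 lower genes without overlap, at a mean of 1 CPM or more in KO and with the same direction against KO1 alone, the 12 with the smallest p were Prox1, Gm14085, Nmnat2, Txlnb, Gm15675, Myo18b, Gm13456, Nlrp10, Gm4070, F730311O21Rik, Pde4dip and Krt222. Gm14085 was at 9.02, 9.15 and 5.75 CPM in ALKKO and 22.2, 14.6 and 18.8 CPM in KO, a log2 fold change of -1.22 ± 0.34 (SE, DESeq2 FDR = 0.00438), and -1.46 against KO1 alone. Gm13456 was at 0.484 to 0.639 CPM in ALKKO and 1.48, 1.64 and 1.01 CPM in KO, a log2 fold change of -1.25 ± 0.40 (SE). For the other 10 genes 1 KO library, or KO2 and KO3 together, lay well above the rest. Gm4070, Nlrp10 and Myo18b passed the filter on low counts only through the KO libraries. Prox1, a homeobox factor of lymphatic endothelium and heart, was at 0.371, 24.5 and 6.07 CPM in KO1, KO2 and KO3, and Txlnb, a muscle taxilin, at 2.17, 2.76 and 73.5 CPM.

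The comparison of ALK tumors with Ctrl asks for the transgene's difference where Dnmt1 is functional, and it shares no library with ALKKO against KO. It differs in more than Dnmt1, since tumor cells stand against thymocytes. Of the 151 genes higher in ALKKO at an unadjusted p under 0.05, 34 were called higher in ALK (22.5% of the 151 and 2.52% of the 1350 called higher in ALK), where 8.41% of all genes tested were. Another 14 (9.27%) were called lower in ALK, where 12% of all genes were. Without regard to size or test, 86 (57%) had a higher level in ALK than in Ctrl, close to the 52.5% of all genes. Of the 281 lower genes, 57 (20.3%) were called lower in ALK and 11 (3.91%) higher. In 73 genes (0.455%) all 6 transgenic libraries lay above all 6 KO and Ctrl libraries, and 24 of these were among the 151. The gene-wise spread in both comparisons came from the same fit.

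Of the genes named by the study, Alk, Socs3, Gzma, Trim66, Tha1 and 5830468F06Rik had values close to each other in both comparisons, though not in every tumor. The study named them because they were up-regulated in both ALK and ALKKO, relative to Ctrl and KO, in these same libraries. Their closeness in part follows from that choice and supports nothing. The log2 fold changes were 7.86 and 7.60 for Alk, 2.59 and 2.29 for Socs3, 2.66 and 2.01 for Gzma, 3.33 and 3.27 for Trim66, 1.66 and 1.499 for Tha1 and 2.88 and 2.86 for 5830468F06Rik, in ALKKO against KO and in ALK against Ctrl. The difference between the comparisons was 0.26 ± 0.58 for Alk, 0.30 ± 0.76 for Socs3, 0.65 ± 0.77 for Gzma and 0.06 ± 1.08 for Trim66 (log2, SE), none of which passed the test, with errors larger than the differences. Trim66 was at 1.05 CPM in 1 tumor, within the Ctrl range of 0.701 to 1.07 CPM, and 5830468F06Rik at 3.83 CPM in another, within the Ctrl range of 2.86 to 5.09 CPM. Socs3 was at 50.6 CPM in 1 tumor and at 182.0 and 192.2 CPM in the others, all below the lowest ALKKO library. For Myc, Notch1 and Cd44 the test of the difference passed. Myc had a log2 fold change of 0.03 in ALKKO against KO and 1.72 in ALK against Ctrl (difference -1.69 ± 0.29 SE, edgeR FDR = 0.00805). Notch1 had 0.60 and 3.41 (difference -2.81 ± 0.54 SE, edgeR FDR = 0.0127), and Cd44 -0.61 and 3.87 (difference -4.49 ± 1.24 SE, edgeR FDR = 0.0457). Over all genes the difference was called for 1433 (8.93%). Lrrc66 and Noct differed in the other direction, with -0.03 and -0.49 in ALK against Ctrl (differences 4.57 ± 0.75 and 1.75 ± 0.37 SE, edgeR FDR = 0.0072 and 0.0186). Pim1 did as well, at -1.41 in ALK against Ctrl (difference 1.98 ± 0.28 SE, edgeR FDR = 0.00427).

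**Figure D5:**
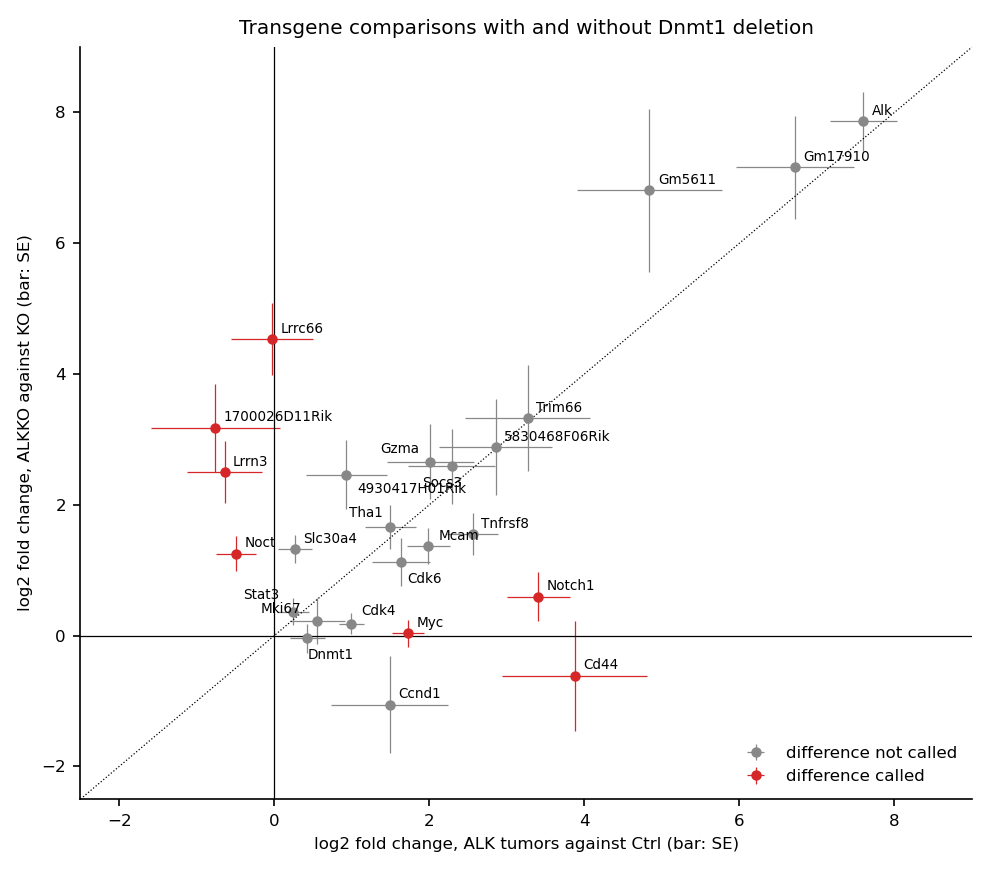
log2 fold change ± SE of ALKKO against KO (y axis) and of ALK tumors against Ctrl (x axis) for the genes named by the study and the 12 leading higher genes; red marks genes whose difference between the comparisons was called, and the dotted line marks equal values. Socs3, Gzma, Trim66 and Alk lie near the line, Myc, Notch1 and Cd44 lie below it, and Lrrc66, Lrrn3, Noct and 1700026D11Rik lie above it. The study had picked Socs3, Gzma, Trim66 and Alk as up-regulated in both ALK and ALKKO of these same libraries.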

How the data were processed

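Each file held the raw count of reads per gene of 1 library, which the authors deposited without normalization: stranded poly(A) libraries of RNA from homogenized tissue, trimmed with Trim Galore, aligned to mm10 with STAR and counted with HTSeq. The strand setting and the annotation release are not given in the sources used here. Of 50600 gene IDs, 50376 were matched to GENCODE M21 (GRCm38). Lines for unassigned reads were dropped.

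Counts of all 12 libraries (1 term per group, 8 residual degrees of freedom) were fitted with edgeR 4.0.16 in R 4.3.3: filterByExpr, TMM (factors 0.914 to 1.06), robust glmQLFit and glmQLFTest, with Benjamini-Hochberg adjustment over 16052 genes. The common biological coefficient of variation was 0.436. DESeq2 1.42.0 (Wald test), other filters, sex and age terms and left-out libraries were alternatives. Tables were made with pandas 2.3.3 (Python 3.11.15).

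Named genes were those the study names with these data, the 12 genes with the smallest p in each direction without overlap (mean of at least 1 CPM, absolute log2 fold change above 1, the same sign against KO1 alone, no B cell, plasma cell, muscle or sex-linked marker), and up to 4 members per list. Members and lists were chosen with earlier results of these data known. Promoter windows were RefSeq's (GRCm38.p6), and similarity to Npm1 was searched with blastn. Groups, sexes and ages follow the labels, which differ from the single age in the study's methods. Replicates are separate mice. Floors of 3 counts cover counting error only. Counts of mice within KO and ALKKO differed beyond sampling noise in every pair (18.1 to 226 by chi-square over its degrees of freedom).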

Additional observations from a re-analysis of the deposited data

Results flagged for a closer look

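The transgene comparison in thymocytes with Dnmt1 deletion (ALKKO against KO) and that in tumors (ALK against Ctrl) differed by the test of the difference itself, at an adjusted p under 0.05 and over 1 on the log2 scale, for 20 of the named genes. The differences below are the first comparison minus the second. In study-named genes they were -1.69 for Myc, -2.81 for Notch1 and -4.49 for Cd44. In leading higher genes they were 4.57 for Lrrc66, 3.94 for 1700026D11Rik, 3.14 for Lrrn3 and 1.75 for Noct. In leading lower genes they were 4.01 for Gm14085, -2.23 for Gm13456 and -8.54 for Prox1. In list members they were 5.09 for Nr4a1, 3.30 for Cd83, 2.68 for H2-Aa, 2.19 for Trp53inp1 and 1.98 for Pim1, and -4.99 for Dtx1, -2.04 for Sdc1, -1.15 for Ldha, -1.13 for Ncl and -6.62 for Ttn. Such a difference was called for 8.93% of all genes tested. Values for Cd44, Dtx1, H2-Aa, Cd83 and Sdc1 include KO2, and those for Ttn and Prox1 include KO3 or KO2, whose levels stood apart. Lrrc66 and 1700026D11Rik passed the filter on low counts only through the ALKKO libraries. The groups of 3 mice were too small for a search for single outlying mice.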

How the results depend on the processing

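Alk kept its direction in every alternative that tested it and its call in all but 1: against KO1 alone, with KO2 and KO3 left out, its log2 fold change of 7.925 had an edgeR FDR of 0.0519, and 0 genes were called, with 236 at an unadjusted p under 0.05. The number of genes called was 24 with DESeq2's Wald test and 4 with edgeR on the 9 thymus libraries (Alk, Gzma, Lrrc66 and 5830411N06Rik). It was 0 where 10 counts were required in every library, a filter that removes Alk itself, and 1 to 2 with single libraries left out, where the second gene was Lrrc66 without ALK replicate 2 and Gzma without ALK replicate 3. In fits chosen after seeing the data it was 12 on the 9 thymus libraries without KO2 and 7 without KO2 and KO3, of which 5 were higher. Genes with an unadjusted p under 0.05 numbered 432, against 746 without a filter, 201 with 10 counts in every library, 681 on the 9 thymus libraries, and 936 or 967 on these without KO2 or without KO2 and KO3. With single libraries left out the number ran from 221 without ALKKO1 to 978 without KO1, with 717 without KO3 and 262 without ALKKO3. The difference of the transgene comparisons was called for 1433 genes, 2486 with DESeq2, 667 with the stricter filter, 443 with glmTreat against a minimum fold, and 560 to 2219 with single libraries left out. Same-numbered KO and ALKKO mice correlated in their deviations from the group means at 0.445, 0.238 and -0.056. With 3 mice per group, and KO2 and KO3 unlike KO1, these values cannot decide whether the numbers pair the mice. With the replicate number as a block 251 genes had an unadjusted p under 0.05, 1 was called and the difference was called for 1118. Of the values of named genes under the alternatives, 31 passed the test where they had not before, 207 values without a call crossed 0, and 2208 kept direction and call. Sex and labelled age as covariates left Alk as the 1 gene called. The causes of these changes were not tested. With 3 mice per group and KO2 and KO3 unlike KO1, small differences were not detectable, and genes near the floor of 3 counts rest on few reads. The strand setting limits what can be said of overlapping and antisense genes.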

Other observations

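Among the genes called in the 9 thymus libraries without KO2, a fit chosen after seeing the data, Serpinb5, Sgk1 and Slfn4 were not described above. Serpinb5, which encodes the serpin maspin, was at 82.9, 60.2 and 62.5 CPM in ALKKO, 12.6, 0.172 and 8.29 CPM in KO and 8.14 to 13.4 CPM in Ctrl, so that every ALKKO library lay above every KO and Ctrl library (edgeR FDR = 0.0221 in that fit). Sgk1, a serum- and glucocorticoid-regulated kinase, was at 205.7, 136.1 and 123.7 CPM in ALKKO, 50.2, 82.3 and 41.8 CPM in KO and 40.5 to 41.8 CPM in Ctrl (edgeR FDR = 0.0402). Slfn4, a schlafen gene induced by interferon in myeloid cells, was at 24.0, 19.6 and 20.6 CPM in ALKKO, 3.13, 25.2 and 3.30 CPM in KO and 1.02 to 1.66 CPM in Ctrl (edgeR FDR = 0.0125), with KO2 above the ALKKO libraries. Ndrg3, a member of the NDRG family that DESeq2 called, was at 551.4, 517.0 and 483.1 CPM in ALKKO and 303.6, 146.9 and 256.1 CPM in KO, without overlap.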
